A study of Homo sapiens with 16 samples.

Results

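The genes described are IFI27, its paralogs IFI27L1 and IFI27L2, IFI6, IFI44 and IFI44L, a set of interferon-stimulated genes (ISGs). Their regions were all windows of the H3K27ac table whose nearest gene was 1 of these 6 and whose centre lay within 50000 bp of its transcription start site (TSS). This gave 27 of 151654 windows, of which 4 belonged to IFI27, 5 to IFI27L2, 2 to IFI6, 9 to IFI44, 7 to IFI44L and 0 to IFI27L1. The set was chosen by the large rise of H3K27ac at IFI27 and IFI44L with IFN in WT cells, so the IFN effect in WT cells is given as values without a test. H3K27ac is a histone acetylation that marks active promoters and enhancers, and it was measured by ChIP-seq in THP-1, a human monocytic leukemia cell line. WT cells, labelled Cas9 only, and USP18-/- cells, labelled Crispr USP18KO, were either left untreated or given IFNα at 1000 U/ml for 6 h, with 2 libraries in each of these 4 groups. All cells thus belonged to 1 leukemia line, and only the WT label names Cas9. According to the methods, knockout cells were grown from sorted single cells, and the labels do not say which clone was used, so a property of the clone and the loss of USP18 cannot be told apart.

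Interferons of type I bind the receptor IFNAR, which activates JAK1 and TYK2 and leads to the complex ISGF3, which contains STAT2 and IRF9. ISGF3 binds the interferon-stimulated response element (ISRE) in the promoters of ISGs. USP18 is itself an ISG, removes the ubiquitin-like protein ISG15 from its targets and dampens signaling at the receptor. IFI27 and IFI6 encode small hydrophobic proteins of the same family, IFI27 being found at mitochondria and IFI6 at the endoplasmic reticulum. IFI27L1 and IFI27L2 are relatives of IFI27 on the same chromosome arm. IFI44 and IFI44L lie side by side on chromosome 1 and encode related cytoplasmic proteins, and IFI44L, IFI27 and IFI6 are widely used in blood signatures of interferon exposure.

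The promoter sequences of the 4 genes whose TSS windows gained H3K27ac are shown first, because they carry matches to the core letters of the ISRE, GAAA repeated after 2 bases of any kind, searched on both strands. Each sequence is the 180 bases before the RefSeq start on the strand of the gene (GRCh38.p14), and capitals mark the ISRE matches. IFI27 lies at chr14:94110556-94110735 on the plus strand, IFI6 at chr1:27672193-27672372 on the minus strand, IFI44L at chr1:78620268-78620447 and IFI44 at chr1:78649609-78649788, both on the plus strand.
IFI27: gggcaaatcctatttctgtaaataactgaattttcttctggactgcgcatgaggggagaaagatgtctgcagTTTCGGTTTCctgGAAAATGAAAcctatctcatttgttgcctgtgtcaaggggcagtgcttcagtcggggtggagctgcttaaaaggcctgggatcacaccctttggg
IFI6: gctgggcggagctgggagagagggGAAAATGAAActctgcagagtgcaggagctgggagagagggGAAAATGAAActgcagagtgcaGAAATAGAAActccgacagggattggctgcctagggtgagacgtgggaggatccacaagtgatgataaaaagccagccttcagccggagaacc
IFI44L: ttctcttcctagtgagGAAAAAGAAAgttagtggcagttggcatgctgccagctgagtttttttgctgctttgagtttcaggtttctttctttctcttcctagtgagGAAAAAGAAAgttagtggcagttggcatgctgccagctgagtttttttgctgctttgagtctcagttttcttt
IFI44: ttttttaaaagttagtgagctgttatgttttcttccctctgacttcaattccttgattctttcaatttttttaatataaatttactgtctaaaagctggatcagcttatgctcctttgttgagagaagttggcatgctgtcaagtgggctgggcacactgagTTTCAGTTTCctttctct

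The promoters differed in the number and spacing of these matches. IFI6 held 3 matches, starting at -156, -115 and -93 from the RefSeq start, and the first pair lay in a direct repeat of 29 bases whose copies were spaced 41 bases apart. IFI44L held 2 matches, at -164 and -73, in a direct repeat of 85 bases spaced 91 bases apart. IFI27 held 2 matches on opposite strands, at -108 and -95. IFI44 held a match on the minus strand at -18, which reads TTTCAGTTTC on the strand shown. IFI27L1 and IFI27L2 held 0 matches in the same stretch. The IFI27L2 promoter, at chr14:94129605-94129784 on the minus strand, is printed because its window showed little change with IFN.
IFI27L2: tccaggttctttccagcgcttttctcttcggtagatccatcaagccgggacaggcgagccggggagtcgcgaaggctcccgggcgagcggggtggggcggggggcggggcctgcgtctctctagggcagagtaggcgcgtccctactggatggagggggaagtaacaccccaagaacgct

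Among all 35116 RefSeq promoters of 300 bases, reaching 250 before and 50 after the start, 3.57% held an ISRE match. In the 1000 bp windows of the table, the match was found in 9 of 27 windows of these genes, or 33.33%, against 17.19% of all windows. Of all windows within 1500 bp of a TSS, 11.0% held it. For the longer form, in which CT follows the second GAAA, and whose matches are all among those of the first motif, the count was 4 of 27 windows against 1.468% of all windows. Matches to the letters of the GAS motif, TTCNNNGAA, were found in 3 of 27 windows against 26.21% of all windows. The NF-kB letters, GGG and TTTCC separated by 2 bases of any kind, were found in 1 of 27 against 4.494%. A match to letters describes the sequence and does not show that a factor was bound there.

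H3K27ac tags were counted per window and are given as CPM, counts scaled to the library total after TMM adjustment in edgeR. The libraries held between 9046141 and 12935453.5 tags in the windows, and each library of USP18-/- cells was larger than each library of WT cells. Of the 27 windows, 16 reached 10 counts in 2 or more libraries and were tested, and 11 did not. Of these 16, 8 would also have passed on the 4 untreated libraries alone, against 87.4% of all tested windows. The other 8 needed a treated library to enter. They were IFI27 -1166 and +4430 bp, IFI44L -30 and -2621 bp, IFI44 -6, -1335 and +28723 bp and IFI27L2 -7252 bp. Their p-values in comparisons with treated libraries are given as a description and are no support for a change. Counts over the tested windows are given as a description as well. Among all 123276 tested windows the median level lay between 1.89 and 2.27 CPM in the 4 groups. Of 10 monocytic and myeloid marker genes all had a window within 3000 bp of the TSS, the farthest being FCGR1A at +2820 bp. Their summed level lay between 226 and 252 CPM in every library, although single markers moved with the groups. MPO, a granule enzyme with its window at -1012 bp, gave 49.0 to 56.9 CPM in WT libraries. It gave 16.5 to 18.5 CPM in untreated and 3.85 to 4.81 CPM in treated USP18-/- libraries. SPI1, which encodes the myeloid factor PU.1, gave 64.8 to 74.7 CPM in WT libraries, 98.9 to 99.9 CPM in untreated and 128 to 131 CPM in treated USP18-/- libraries. LYZ lay between 4.60 and 5.69 CPM in treated USP18-/- libraries and between 11.0 and 14.4 CPM in the others. CD14 gave 3.19 to 4.98 CPM in WT and 7.18 to 8.83 CPM in USP18-/- libraries. Windows were absent within 3000 bp of the TSS of CD3E, CD3D, MS4A1, GATA1, HBB and EPCAM, which mark other lineages. CD4 lay between 5.39 and 15.0 CPM, CD79A between 4.51 and 7.53 CPM and CD8A between 0.580 and 1.42 CPM. KRT8, an epithelial marker, gave 0.994 to 1.44 CPM in WT and 0.356 to 0.774 CPM in USP18-/- libraries. The summed T cell markers were between 6.22 and 8.15 CPM in WT libraries and between 12.4 and 15.9 CPM in USP18-/- libraries, mostly from CD4, which monocytic cells also express, and the part of these markers in the results below was not tested. In bulk samples, acetylation in fewer cells and less acetylation per cell cannot be told apart. The p-values measure the spread between 2 cultures of a line per group.

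At the IFI27 promoter, H3K27ac was close to absent in untreated WT cells and strong after IFN. The window at -53 bp (chr14:94110180-94111180, promoter-TSS) gave 0.415 and 0.273 CPM in untreated WT cells and 7.55 and 8.13 CPM with IFN. In USP18-/- cells it gave 1.05 and 1.35 CPM untreated and 15.2 and 17.8 CPM with IFN. The 4 groups did not overlap, and both treated groups lay above both untreated groups. In WT cells 7 counts stood against 155 after IFN, a 23.1-fold ratio with a 95% counting interval of 10.9 to 58.4, so the low starting level limits the precision of the fold change. The fitted log2 fold change with IFN was 4.48 (SE 0.38) in WT cells. In USP18-/- cells it was 3.77 (SE 0.25, adjusted p = 1.35e-22 by edgeR's quasi-likelihood F test, adjusted after Benjamini and Hochberg over all tested windows). As log2 differences, USP18-/- exceeded WT cells by 1.78 when untreated (SE 0.56) and by 1.07 with IFN (SE 0.18). This promoter thus had the highest level in treated USP18-/- cells, while the difference of the IFN effects, USP18-/- minus WT, was -0.71 (SE 0.60), little more than its SE.

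The upstream window of IFI27 moved with its promoter. At -1166 bp (chr14:94109067-94110067, intergenic, with its centre in a MER65B LTR element) untreated WT cells gave 0.622 and 0.728 CPM and treated WT cells 5.56 and 5.15 CPM. USP18-/- cells gave 0.963 and 0.677 CPM untreated and 8.36 and 11.9 CPM with IFN. Here the untreated groups of both genotypes overlapped, and the treated groups did not. IFN changed it by 2.96 on the log2 scale (SE 0.36) in WT cells and by 3.60 in USP18-/- cells (SE 0.30, edgeR adjusted p = 2.58e-17). As this window passed the count filter only with a treated library, this p-value is given as a description.

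Inside the gene, the window at +4430 bp (chr14:94114745-94115745, intron) was weaker. It gave 0.518 and 1.27 CPM in untreated and 1.39 and 1.54 CPM in treated WT cells, and 0.700 and 0.677 CPM in untreated and 3.38 and 2.82 CPM in treated USP18-/- cells. The treated USP18-/- libraries lay above all the others. Its log2 fold change with IFN was 0.67 (SE 0.46) in WT cells and 2.15 in USP18-/- cells (SE 0.42, edgeR adjusted p = 2.06e-05). The WT value was 0.20 without the first untreated WT library and 1.48 without the second. Here too a treated library was needed to pass the count filter, so the p-value is given as a description.

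A window at -12161 bp from the IFI27 TSS went the other way in USP18-/- cells. It lies at chr14:94098072-94099072 in an intron of IFI27L1, with its centre in an MLT1C LTR element, and holds 0 ISRE matches and a GAS match. WT cells gave 5.81 and 6.01 CPM untreated and 5.76 and 7.62 CPM with IFN, and these groups overlapped. USP18-/- cells gave 9.28 and 10.8 CPM untreated, above every other library, and 4.98 and 4.13 CPM with IFN, below every other library. IFN in USP18-/- cells lowered H3K27ac there, with a log2 fold change of -1.13 (SE 0.21, edgeR adjusted p = 7.82e-06), against 0.18 (SE 0.22) in WT cells. Averaged over all 8 libraries it had the highest level of the windows assigned to IFI27, although with IFN the mean at the promoter was higher in both genotypes, and it was the one tested window of these genes called lower with IFN in USP18-/- cells.

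IFI6 had the highest promoter level of the set in treated USP18-/- cells, while in treated WT cells its level overlapped that of IFI44L. Its window at -83 bp (chr1:27671796-27672796, promoter-TSS) gave 2.80 and 3.64 CPM in untreated and 15.7 and 17.9 CPM in treated WT cells. USP18-/- cells gave 4.73 and 3.68 CPM untreated and 64.8 and 53.5 CPM with IFN. The untreated USP18-/- libraries lay only slightly above the untreated WT ones, and every treated USP18-/- library lay above every treated WT library. Relative to all windows, this promoter went from percentile 66.0 to 89.6 in WT cells and from percentile 72.7 to 97.6 in USP18-/- cells. With IFN the log2 fold change was 2.37 (SE 0.19) in WT cells and 3.81 in USP18-/- cells (SE 0.16, edgeR adjusted p = 5.67e-35), and the difference of these effects was 1.44 (SE 0.29). Between the genotypes, the untreated promoter differed by 0.38 (SE 0.25, edgeR adjusted p = 0.254). With IFN in both, USP18-/- cells were 3.52-fold higher (log2 1.82, SE 0.13, edgeR adjusted p = 2.2e-21).

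The second window of IFI6, at +4391 bp (chr1:27667322-27668322, intron, with its centre in an AluSx element), did not follow the promoter. It gave 6.12 and 6.73 CPM in untreated and 3.08 and 4.53 CPM in treated WT cells, a log2 fold change of -0.76 (SE 0.24). In USP18-/- cells it gave 5.08 and 6.38 CPM untreated and 6.05 and 7.98 CPM with IFN, and these groups overlapped (log2 0.29, SE 0.22, edgeR adjusted p = 0.389). With IFN in both genotypes, the USP18-/- level was 1.84-fold the WT level, below the 2-fold threshold (log2 0.88, SE 0.24, edgeR adjusted p = 0.00154). It passed 2-fold without the second treated WT library, at a log2 of 1.18, and without the first treated USP18-/- library, at 1.03.

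**Figure D1:**
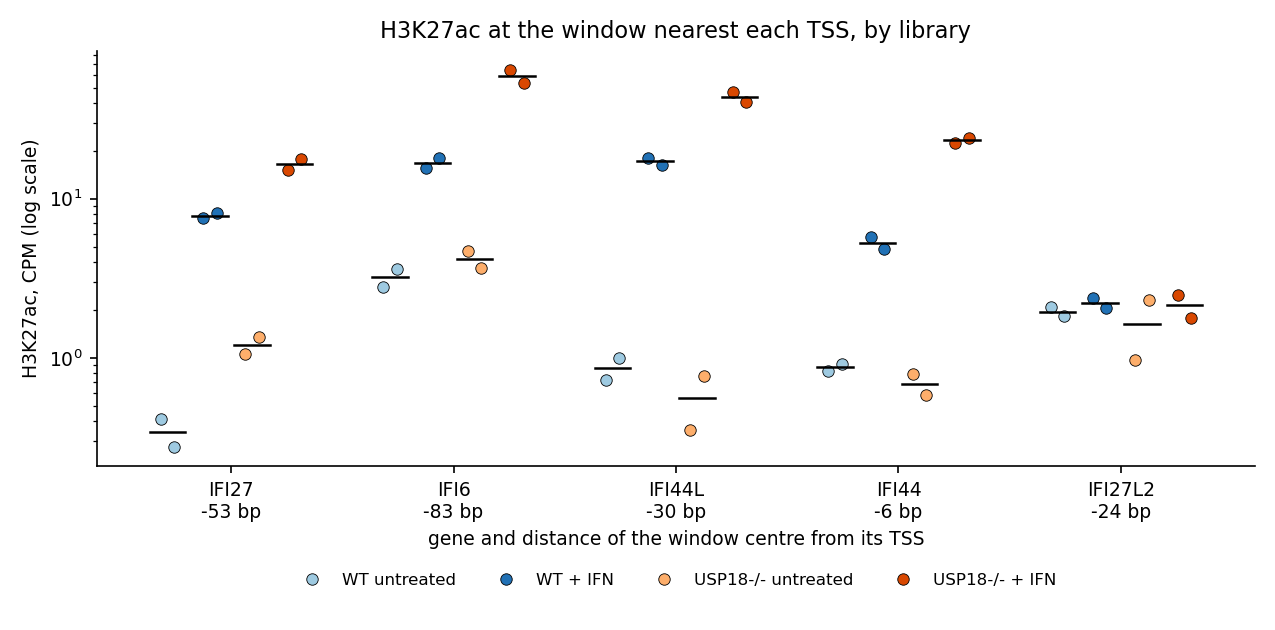
H3K27ac in CPM (log axis) at the window nearest the TSS of IFI27, IFI6, IFI44L, IFI44 and IFI27L2. Each point is 1 library, horizontal bars are group means and colors mark the 4 groups. At IFI6, IFI44L and IFI44 the treated USP18-/- libraries, between 22.3 and 64.8 CPM, sit above the treated WT libraries, between 4.84 and 18.1 CPM, while at IFI27L2 the groups overlap.

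IFI44L showed the largest fold change with IFN among the tested windows in USP18-/- cells. Its window at -30 bp (chr1:78619852-78620852, promoter-TSS) gave 0.726 and 1.00 CPM in untreated and 18.1 and 16.3 CPM in treated WT cells. In USP18-/- cells it gave 0.350 and 0.774 CPM untreated and 46.6 and 40.8 CPM with IFN. The untreated genotypes overlapped at a level below most windows, percentile 32.3 in WT and 18.1 in USP18-/- cells, and the treated genotypes did not overlap. With IFN the log2 fold change was 4.28 (SE 0.26) in WT cells and 6.28 in USP18-/- cells (SE 0.24, edgeR adjusted p = 2.51e-37). The USP18-/- value corresponds to 77.6-fold and rests on 12 untreated counts against 958, a ratio with a counting interval of 45.2 to 154. Without the second untreated USP18-/- library it was 121-fold. The difference of the IFN effects was 2.00 (SE 0.55), and treated USP18-/- cells lay 1.35 above treated WT cells in log2 units (SE 0.13). Because a treated library was needed to pass the count filter, the p-value of this window is given as a description.

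The window at +509 bp (chr1:78620391-78621391, first intron) shares 462 bp with the promoter window and is no separate evidence. It gave 1.04 and 0.910 CPM, then 15.5 and 14.6 CPM with IFN in WT cells, and 0.700 and 0.387 CPM, then 38.6 and 33.8 CPM in USP18-/- cells. Its log2 fold changes were 3.94 (SE 0.26) and 6.01 (SE 0.25, edgeR adjusted p = 2.56e-35), so the same order of groups was seen.

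At -2621 bp of IFI44L (chr1:78617261-78618261, LTR41 element) the order differed. WT cells gave 0.726 and 0.728 CPM untreated and 2.78 and 1.65 CPM with IFN, and USP18-/- cells gave 0.700 and 0.774 CPM untreated and 1.42 and 1.69 CPM with IFN. The treated genotypes overlapped, both above the untreated ones. Its log2 fold change was 1.60 (SE 0.46) in WT cells and 1.07 in USP18-/- cells, which did not pass the test (SE 0.47, edgeR adjusted p = 0.0966). This window holds an ISRE match on the minus strand, shown here on that strand in a stretch of 30 bases at chr1:78617562-78617591 because it lies beside the strongest responder.
IFI44L -2621 bp: tggagcaaaaGAAAATGAAActagaagacg

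IFI44, the neighbor of IFI44L, had a lower promoter level but a larger gap between the genotypes. Its window at -6 bp (chr1:78649283-78650283, promoter-TSS) gave 0.830 and 0.910 CPM in untreated and 5.76 and 4.84 CPM in treated WT cells, and 0.788 and 0.580 CPM in untreated and 22.3 and 24.1 CPM in treated USP18-/- cells. No untreated USP18-/- library exceeded an untreated WT library, and each treated USP18-/- library was above each treated WT library. The log2 fold change with IFN was 2.59 (SE 0.33) in WT cells and 5.05 in USP18-/- cells (SE 0.26, edgeR adjusted p = 5.42e-29). The difference of these effects, 2.46 (SE 0.55), was the largest among the 5 windows nearest a TSS, although it lay within 1 SE of the value at IFI44L. Untreated genotypes differed by -0.34 (SE 0.50, edgeR adjusted p = 0.669). Treated USP18-/- cells were 4.37-fold above treated WT cells (log2 2.13, SE 0.18, edgeR adjusted p = 3.21e-17). This promoter window passed the count filter only with a treated library, so its p-values with IFN are given as a description.

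A pair of other IFI44 windows, both at LTR elements, also rose in USP18-/- cells. At -1335 bp (chr1:78647954-78648954, THE1C) the levels were 0.207 and 0.728 CPM in untreated and 1.39 and 1.85 CPM in treated WT cells, and 0.438 and 0.774 CPM in untreated and 4.09 and 5.07 CPM in treated USP18-/- cells. Its log2 fold change was 1.72 (SE 0.51) in WT cells and 2.91 in USP18-/- cells (SE 0.40, edgeR adjusted p = 4.27e-09). Without the second untreated WT library the WT value was 2.89, so that the difference of the IFN effects went from 1.19 to 0.016, and without the first the WT value was 1.14. Far downstream, at +28723 bp (chr1:78678015-78679015, LTR33A_), WT cells gave 0.207 and 1.09 CPM untreated and 0.994 and 0.618 CPM with IFN, while USP18-/- cells went from 0.525 and 0.387 CPM to 4.09 and 3.01 CPM. The WT groups overlapped, and treated USP18-/- cells stood above all other libraries. The log2 fold change there was 2.92 in USP18-/- cells (SE 0.47, edgeR adjusted p = 2.75e-07) and 0.26 (SE 0.58) in WT cells, where it became 1.90 without the second untreated library. With IFN in both, USP18-/- cells were higher at -1335 bp by 1.49 (SE 0.34, edgeR adjusted p = 0.000129) and at +28723 bp by 2.12 (SE 0.43, edgeR adjusted p = 1.94e-05). Both windows needed a treated library to pass the count filter, so their p-values are given as a description. The distal window holds an ISRE match on the plus strand, at chr1:78678267-78678296.
IFI44 +28723 bp: acttaaggcaGAAAATGAAAgcaactccgg

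The last IFI44 window called in USP18-/- cells, at -3924 bp (chr1:78645365-78646365), lies in the 3′ UTR of IFI44L. It gave 1.24 and 0.910 CPM in untreated and 0.994 and 0.926 CPM in treated WT cells, and 0.263 and 0.484 CPM in untreated and 1.25 and 1.50 CPM in treated USP18-/- cells. Untreated USP18-/- cells were thus the low group, and the other groups were similar. With IFN in USP18-/- cells the log2 fold change was 1.86 (SE 0.59, edgeR adjusted p = 0.0124). This call was lost without the first untreated USP18-/- library, at 1.45 with an edgeR adjusted p of 0.157, and without the second treated one, at 1.70 with an edgeR adjusted p of 0.0896.

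**Figure D2:**
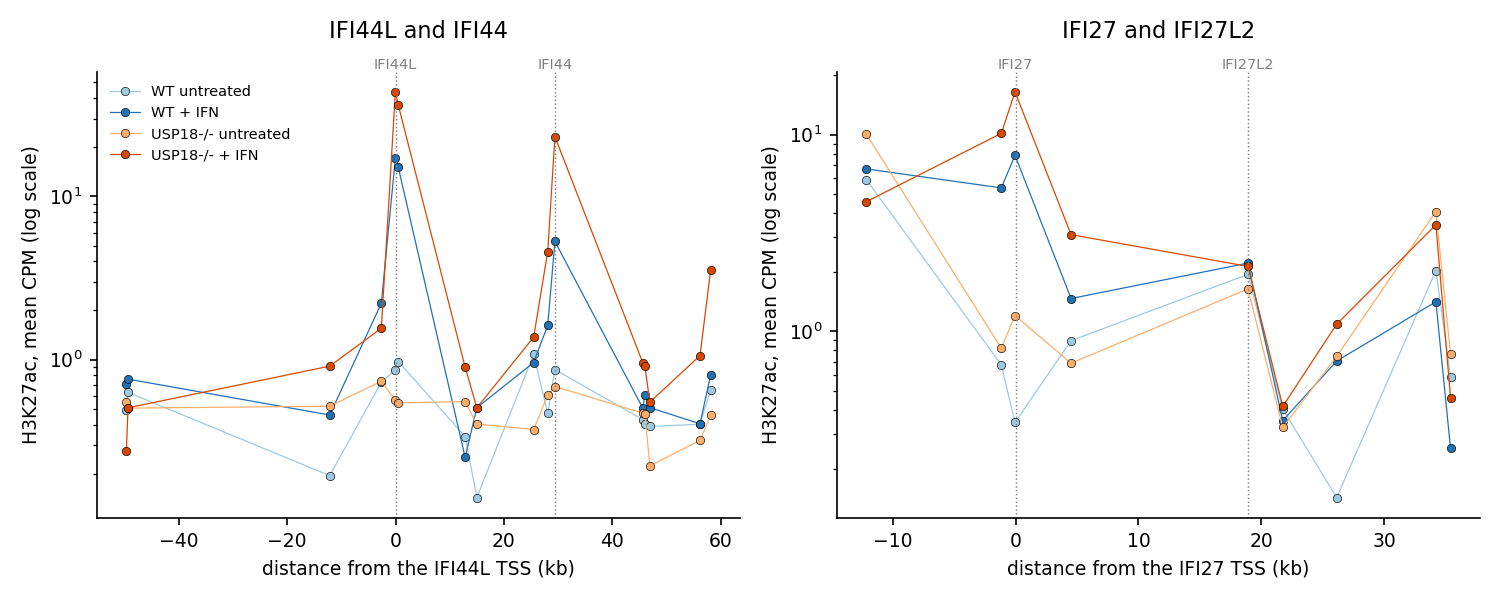
Mean H3K27ac in CPM (log axis) of the 4 groups at each window of IFI44L and IFI44 (left) and of IFI27 and IFI27L2 (right), against the distance of the window centre from the IFI44L or IFI27 TSS in kb. Points are windows, thin lines only join them, and dotted lines mark the TSS of each gene. The treated groups rise at the TSS of IFI44L, IFI44 and IFI27, with up to 43.7 CPM at IFI44L, and the 4 groups lie close together at the TSS of IFI27L2.

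At IFI27L2, no window was called with IFN in USP18-/- cells. Its promoter window at -24 bp (chr14:94129144-94130144) gave 2.07 and 1.82 CPM in untreated and 2.38 and 2.06 CPM in treated WT cells, and 0.963 and 2.32 CPM in untreated and 2.49 and 1.78 CPM in treated USP18-/- cells. All 4 groups lay within the spread of the untreated USP18-/- pair except for small excesses of 2 treated libraries. The log2 fold change with IFN was 0.20 (SE 0.37) in WT cells and 0.41 in USP18-/- cells (SE 0.37, edgeR adjusted p = 0.508). The genotypes differed by -0.26 untreated (SE 0.38, edgeR adjusted p = 0.658) and by -0.05 with IFN (SE 0.36, edgeR adjusted p = 0.93). These values moved with single libraries of the untreated USP18-/- pair. Without its first library the IFN effect was -0.14 and the untreated genotype difference 0.26, and without its second they were 1.15 and -1.003, none of them called.

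A distal window of IFI27L2 differed by genotype instead. At -15328 bp (chr14:94144448-94145448, LTR33) WT cells gave 2.80 and 1.27 CPM untreated and 1.59 and 1.24 CPM with IFN, and USP18-/- cells gave 3.68 and 4.45 CPM untreated and 3.38 and 3.57 CPM with IFN. Every USP18-/- library exceeded every WT library, and IFN was not called in USP18-/- cells (log2 -0.22, SE 0.28, edgeR adjusted p = 0.662). With IFN in both, USP18-/- cells were 2.44-fold higher (log2 1.29, SE 0.35, edgeR adjusted p = 0.00134). Untreated, the log2 difference was 1.02 (SE 0.31, edgeR adjusted p = 0.00696). That call fell away without the second untreated WT library, at 0.53 with an edgeR adjusted p of 0.312, and without the second untreated USP18-/- library, at 0.88 with an edgeR adjusted p of 0.0729, and without the first untreated WT library the difference was 1.66. This window too holds an ISRE match, on the minus strand at chr14:94145355-94145384, and is shown as a case where the letters were present and no rise with IFN was called.
IFI27L2 -15328 bp: gagagacagaGAAAGGGAAAataaccaggc

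The third tested window of IFI27L2, at -7252 bp (chr14:94136372-94137372), was near the lower limit of the test. It gave 0.104 and 0.182 CPM in untreated and 0.795 and 0.618 CPM in treated WT cells, and 0.525 and 0.967 CPM in untreated and 1.42 and 0.751 CPM in treated USP18-/- cells. Untreated WT cells stood below the rest, and the USP18-/- groups overlapped. The log2 fold change with IFN was 2.19 (SE 0.90) in WT cells and 0.56 in USP18-/- cells (SE 0.60, edgeR adjusted p = 0.593). The WT value rests on 3 untreated counts against 14, a ratio with a counting interval of 1.36 to 26.4. The untreated genotypes differed by 2.26 (SE 0.88, edgeR adjusted p = 0.0388). Only USP18-/- libraries reached 10 counts here, so the window entered the test through the genotype with the higher level. Its p-value is thus no support for a difference. The call was lost without the first or second untreated WT library (edgeR adjusted p = 0.17 and 0.0985) and without the second untreated USP18-/- library (edgeR adjusted p = 0.254).

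No window carried IFI27L1 as its nearest gene. The IFI27L1 start at chr14:94081301 falls in a window assigned to DDX24, an RNA helicase gene transcribed away from it (chr14:94080745-94081745). This shared promoter region gave means of 15.2 CPM in untreated WT cells, 13.9 CPM in treated WT cells, 16.5 CPM in untreated USP18-/- cells and 16.6 CPM in treated USP18-/- cells. The log2 fold change with IFN was -0.12 (SE 0.16) in WT cells and 0.01 in USP18-/- cells (SE 0.15, edgeR adjusted p = 0.997), so no change was called at a level well above the median window.

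Over the tested windows of these genes, IFN in USP18-/- cells gave 10 called higher and 1 called lower of 16, past 2-fold at an adjusted p under 0.05 by edgeR. Among all tested windows, 7.12% were called higher and 4.41% lower in that comparison. Of those 10, 4 belonged to IFI44, 3 to IFI27, 2 to IFI44L and 1 to IFI6, and they include windows that needed a treated library to enter. Among them were 0 of 3 IFI27L2 windows, of which 0 had an unadjusted p under 0.05 and 0 were called by DESeq2. DESeq2 gave no adjusted p for the IFI27L2 window at -7252 bp. When all windows with any count were tested, the counts were again 10 higher and 1 lower, so none of the 11 windows below the filter was added. The median log2 fold change of the 16 was 2.53, with a range of -1.13 to 6.28, beside a median of -0.01 over all tested windows. In WT cells, where the genes were chosen, 13 of 16 had a positive value, 9 exceeded 2-fold and the median was 1.66. Of all tested windows, 2.64% exceeded 2-fold in that comparison with no p applied, and 0.343% were called higher and 0.0389% lower. Without the first untreated WT library the WT median was 1.37, and without the second it was 2.24. Within 1500 bp of a TSS, 7 of 8 tested windows were called higher in USP18-/- cells, with IFI27L2 as the exception, and beyond it 3 of 8 were higher and 1 lower. The share over all tested windows was not split by this distance, so the split is only a description. The near group also holds the overlapping IFI44L windows at -30 and +509 bp, and windows that entered only with a treated library.

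**Figure D3:**
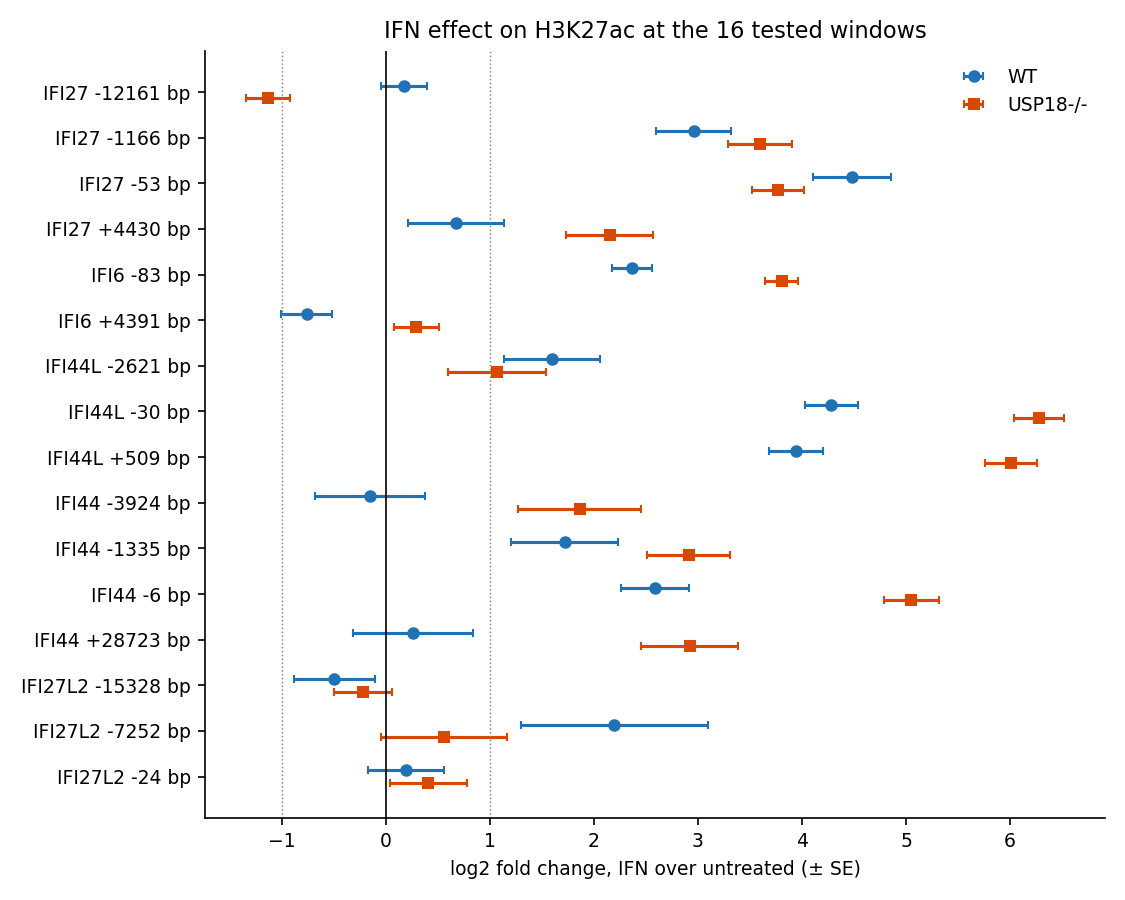
Log2 fold change of H3K27ac with IFN over untreated at the 16 tested windows, for WT (circles) and USP18-/- cells (squares), with error bars of 1 SE and dotted lines at 2-fold. The USP18-/- value lies to the right of the WT value in 12 of 16 windows, and the IFI27 promoter at -53 bp and the window at -12161 bp are among the 4 where it does not.

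The IFN effect was larger in USP18-/- than in WT cells in 12 of 16 windows, and the median difference was 1.12 on the log2 scale beside 0.01 over all tested windows. These differences carry no test because they include the contrast used to choose the genes, and the WT and USP18-/- effects share no library. Leaving out the second untreated WT library lowered the median difference to 0.72, and leaving out the second treated WT library raised it to 1.38. The 3 largest values were 2.66 at IFI44 +28723 bp (SE 0.78), 2.46 at the IFI44 promoter and 2.07 at IFI44L +509 bp (SE 0.53), and the first of these was 1.02 without the second untreated WT library. The 4 negative values were at IFI27L2 -7252 bp (-1.64, SE 1.10), IFI27 -12161 bp (-1.31, SE 0.30), the IFI27 promoter (-0.71, SE 0.60) and IFI44L -2621 bp (-0.53, SE 0.69).

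The genotypes were tested against each other only at 9 windows of IFI6, IFI44 and IFI27L2, whose values did not choose the set. Untreated, 2 of 9 were called higher in USP18-/- cells and 0 lower by edgeR, against 5.69% higher and 10.8% lower over all tested windows. Both were IFI27L2 windows, and the one at -7252 bp passed the count filter only through USP18-/- libraries. This count is therefore given as a description. At an unadjusted p under 0.05, 1 of 9 was lower, and DESeq2 called 0 higher and 0 lower, with no adjusted p for 2 of 9. With scaling to the sum of counts, without TMM, the edgeR counts became 0 higher and 1 lower. The latter was IFI44 at -3924 bp with a log2 of -1.65 (edgeR adjusted p = 0.0313). With IFN in both genotypes, 5 of 9 were higher and 0 lower by edgeR, with 0 lower also at an unadjusted p under 0.05 and by DESeq2, against 11.3% higher and 13.5% lower over all tested windows. DESeq2 gave no adjusted p for 2 of the 9 in this comparison. The 5 called higher were the promoters of IFI6 and IFI44, IFI44 at -1335 and +28723 bp and IFI27L2 at -15328 bp, and the count was between 5 and 6 with each library left out. The IFI44 windows among them passed the count filter only with a treated library, so this count is given as a description. Scaling to the sum of counts moved the median log2 value of all windows by over 0.1, to -0.16 for untreated genotypes, to -0.27 for treated genotypes and to -0.14 for IFN in USP18-/- cells. Under it, all windows split into 4990 higher and 16943 lower instead of 7020 and 13321 for untreated genotypes, and 8825 and 24119 instead of 13971 and 16595 for treated ones. For IFN in USP18-/- cells the split was 7472 higher and 7934 lower instead of 8781 and 5434, while the counts for these genes stayed at 10 and 1.

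**Figure D4:**
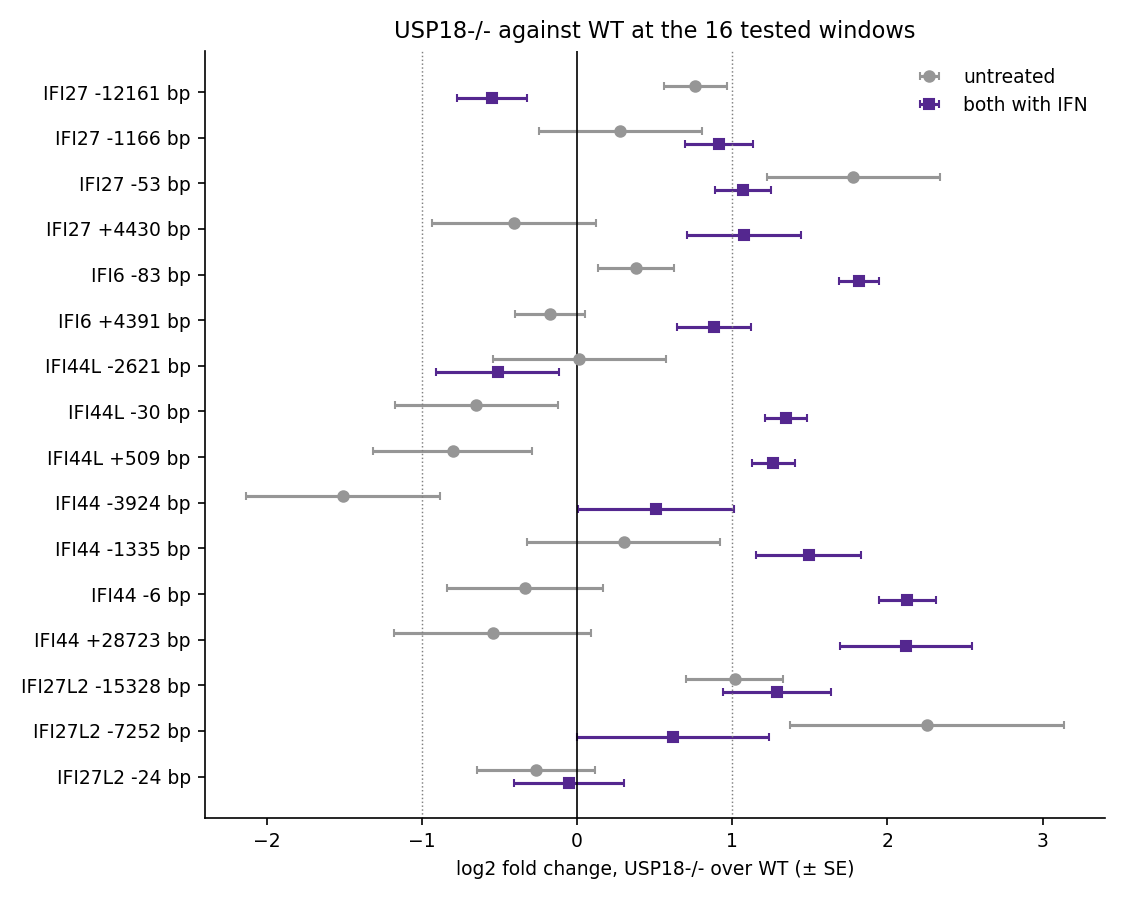
Log2 fold change of H3K27ac in USP18-/- over WT cells at the 16 tested windows, untreated (grey circles) and with IFN in both (purple squares), with error bars of 1 SE and dotted lines at 2-fold. Untreated values scatter on both sides of 0, from -1.51 to 2.26, and with IFN the values at the promoters of IFI6, IFI44L, IFI44 and IFI27 lie between 1.07 and 2.13.

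Windows with and without ISRE letters were then compared as a description. The 7 tested windows with a match had a median log2 fold change of 3.77 with IFN in USP18-/- cells, ranging from -0.22 to 6.28, and 5 of them were called higher by edgeR. The 9 without a match had a median of 1.86, ranging from -1.13 to 6.01, and 5 of them were called higher. Both groups thus held strong and flat windows, and the window at IFI44L +509 bp counts among those without a match although it overlaps a promoter window that has one. The centre of the window lay in an LTR element in 6 of 16 tested windows, or 37.5%, against 9.71% of all tested windows. Of these 6, IFN in USP18-/- cells gave 3 higher, at IFI27 -1166 bp and IFI44 -1335 and +28723 bp, and 1 lower, at IFI27 -12161 bp.

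The surrounding genes FGR, LINC02574, PTGFR, OTUB2, DDX24 and PPP4R4 had 21 windows, of which 18 were tested. With IFN in WT cells 0 were called in either direction by edgeR or DESeq2, and 0 had an unadjusted p under 0.05. In USP18-/- cells 1 was higher and 1 lower, which is near the background of 7.12% and 4.41% over all tested windows. These counts are thus no result about the surrounding genes, and both windows are given as a description. The higher one lies at +24427 bp inside DDX24, in a MER21B LTR element, and went from 1.09 ± 0.313 to 6.07 ± 0.609 CPM (SD, n = 2) in USP18-/- cells, with 0.994 ± 0.525 and 1.26 ± 0.183 CPM (SD, n = 2) in untreated and treated WT cells (log2 2.45 in USP18-/- cells, SE 0.33, edgeR adjusted p = 1.7e-09). It holds the longer ISRE form close to its centre, at chr14:94056772-94056801 on the plus strand, and is shown because it was called in USP18-/- cells although assigned to a neighbor.
DDX24 +24427 bp: gacagcatcaGAAAATGAAActaaattaga

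The lower window lies at +2706 bp of FGR, a gene for a myeloid tyrosine kinase near IFI6, and its log2 value was -1.07 (SE 0.40, edgeR adjusted p = 0.0416). It was no longer called without the second untreated USP18-/- library, at -0.81, or without the second treated one, at -0.72. Without the second untreated USP18-/- library a window at +63000 bp of PTGFR was called higher as well, at a log2 of 3.54. The median log2 fold change over the 18 windows was -0.02 in USP18-/- cells and -0.13 in WT cells, beside -0.01 in each over all tested windows. Values were positive in 9 of 18 windows in USP18-/- cells and in 4 of 18 in WT cells.

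The wider pathway was read from TSS windows within 3000 bp of other genes. Of 7 genes for the receptor, its kinases and ISGF3, IFN gave a window called higher in 2 genes in WT and 4 genes in USP18-/- cells by edgeR. Among all 16104 genes with a tested window there, 0.571% had one called higher and 0.0559% one called lower in WT cells, and 5.66% and 3.14% in USP18-/- cells. No such window was called lower by edgeR or DESeq2, and at an unadjusted p under 0.05 there were 0 lower in WT and 1 lower in USP18-/- cells. Of 4 negative regulators, 3 had a higher window in either genotype. Of 27 further ISGs, all with a tested window, 24 had a higher window in WT and 27 in USP18-/- cells. Untreated, 4 of these 27 had a window higher in USP18-/- than in WT cells and 1 had a lower one, and with IFN 26 had a higher one and 1 a lower one. Over all genes these shares were 9.13% higher and 5.68% lower untreated, and 17.4% higher and 7.4% lower with IFN. At IRF9, a DNA-binding subunit of ISGF3, the means were 13.5 and 42.9 CPM without and with IFN in WT cells and 23.1 and 98.5 CPM in USP18-/- cells. At STAT2 they were 16.7 and 20.8 CPM in WT and 17.8 and 51.1 CPM in USP18-/- cells. Both were already above the median window before treatment, which the promoters of IFI27, IFI44 and IFI44L were not.

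Among the target genes, ISG15 went from 7.49 to 27.8 CPM in WT and from 8.67 to 74.4 CPM in USP18-/- cells, and IFIT1, which binds viral RNA ends, from 3.28 to 15.0 CPM and from 5.28 to 61.2 CPM. The window at the USP18 TSS itself went from 7.76 to 16.6 CPM in WT and from 8.37 to 45.5 CPM in USP18-/- cells, and acetylation of this window says nothing about the edited coding sequence. MX1, a dynamin-like antiviral GTPase, had windows that differed in order. Its window at -236 bp, named after its values were seen, went from 11.4 to 23.04 CPM in WT cells and from 7.67 to 65.9 CPM in USP18-/- cells, with treated USP18-/- cells highest as at ISG15 and IFIT1 (log2 3.10 in USP18-/- cells, SE 0.14, edgeR adjusted p = 1.93e-33). The window at +157 bp, at the start of another transcript, had the opposite order. It went from 0.791 to 5.94 CPM in WT cells and from 0.912 to 1.45 CPM in USP18-/- cells (log2 0.66, SE 0.45, edgeR adjusted p = 0.335).

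Of 28816 windows near a TSS, those with the most similar pattern were ranked by the distance between centered log2 CPM values over the 8 libraries, a description in which all points share their libraries. The pattern of IFI6 was closest to MX2 (distance 0.54), OAS2 (0.64), IFIT3 (0.65), IFITM3 (0.72) and IFIT1 (0.83). IFI44 was closest to IFIT3 (0.95), RSAD2 (0.97), OAS2 (1.14), NT5C3A (1.20) and MX2 (1.20), and its distance to IFI6 was 1.25. IFI27 had no neighbor as near, with EPSTI1 at 1.45, UBE2L6 at 1.86, IFIT1 at 1.98, MX2 at 2.09 and OAS3 at 2.10. IFI44L was the farthest from other windows by this distance, with IFI44 at 2.44. Outside the set, VRK2 lay at 2.58, RSAD2 at 2.70, NT5C3A at 2.72, IFITM1 at 2.76 and EPSTI1 at 2.99. The distance grows with the size of a change. By Pearson correlation, r was 0.997 for IFI44L with VRK2, 0.969 with IFI44 and 0.919 to 0.955 with the others listed. The nearest genes of IFI6, IFI44 and IFI27 had r of 0.994, 0.998 and 0.976.

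The remaining 11 windows of the set did not reach the count filter and stayed between 0.0967 and 1.42 CPM in every library. They were 4 windows of IFI44L, 5 of IFI44 and 2 of IFI27L2. At the edge of the 50000 bp limit, the IFI44L window at -49646 bp, just inside, had means of 0.493, 0.710, 0.553 and 0.277 CPM in untreated and treated WT and untreated and treated USP18-/- cells. The nearest window outside the limit, at -58363 bp of IFI44L, had 1.47, 1.01, 1.50 and 1.56 CPM in the same order. Both thus lay below the median window in every group.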

How the data were processed

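H3K27ac ChIP-seq of THP-1 cells was analysed for WT and USP18-/- cells with and without IFNα, 2 libraries each. As deposited, the values were estimated counts, that is fractional tags per window without normalization. Read mapping to hg38 by the authors used Bowtie2, and HOMER then counted tags around merged ATAC-seq peaks in windows of 1000 bp. Bowtie2 and HOMER versions were not given in the sources used here. Tags were rounded to whole counts, and 0 value columns were left unmapped. Depth in windows was 9046141 to 12935453.5 tags per library, and intervals of count ratios cover counting error only. Input libraries were not analysed here.

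Windows that reached 10 counts in 2 or more of 8 libraries were scaled by TMM and fitted with 1 mean per group in edgeR 4.0.16 (limma 3.58.1, R 4.3.3). Calls needed over 2-fold and an adjusted p under 0.05 by edgeR's quasi-likelihood F test, adjusted after Benjamini and Hochberg over 123276 windows. The common biological coefficient of variation was 0.0747. Genes, gene lists and comparisons were chosen with earlier results of these data known. Named are, for each gene, the tested windows nearest the TSS and with the highest mean, the windows called with IFN in USP18-/- cells, called neighbors, pathway genes and the 5 most similar patterns. The untested and other windows described beside them, and those called between genotypes, were chosen after their values were seen. Similar patterns used log2 CPM with a prior count of 1. Motifs were searched as exact strings with pysam 0.24.0 in hg38, and promoter sequences came from RefSeq on GRCh38.p14, which held all 6 genes. Results for 2 listed genes are not reported here. The fits and the motif search were tested on simulated data. Alternatives were the scaling, DESeq2 1.42.0, the filter, rounding, the libraries fitted, a replicate block, leaving out each library, the thresholds and the motif.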

Additional observations from a re-analysis of the deposited data

How the results depend on the processing

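With IFN in USP18-/- cells, 9 or 10 windows were called higher under all 17 alternatives, and 1 was called lower except that within 10000 bp of the TSS there was 0. Between untreated genotypes, where 2 of 9 were higher, the count was 0 with scaling to the sum of counts and with DESeq2, where 2 of 9 had no adjusted p, and 1 with only the 4 libraries compared and within 10000 bp. It ranged from 0 to 2 with each library left out. The number lower there was 1 with the sum of counts and with unrounded tags instead of 0. Between treated genotypes, 5 higher became 3 within 10000 bp, where fewer windows enter, and ranged from 5 to 6 with each library left out. The median IFN effect in WT cells ranged from 1.37 to 2.24 and the median difference of the effects from 0.72 to 1.38 on the log2 scale with each library left out. Among neighbors in USP18-/- cells, 1 to 2 were higher and 0 to 1 lower with each library left out, 2 were higher with only the 4 libraries compared and 0 lower with DESeq2. Among negative regulators in WT cells, 1 to 3 windows were higher with each library left out. ISRE matches were in 24 of 27 windows with 1 mismatch allowed, in 4 with the longer motif and in 4 in the central 200 bp, against 9. The shares of all windows were 83.92% with 1 mismatch, 1.468% with the longer motif and 5.434% in the central 200 bp. The count with 1 mismatch, 88.89% of the 27, is thus near the share of all windows. Of 1097 values of single windows under alternatives, 11 lost and 4 gained a call, 9 untested values moved by more than the replicate spread, and 0 calls changed sign. Except where stated, the cause was not tested.

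Same-numbered libraries deviated together with correlations from 0.000858 to 0.0414, so the numbers were not treated as pairs. With the replicate block the counts were 10 higher and 1 lower with IFN in USP18-/- cells, 2 and 0 between untreated and 5 and 0 between treated genotypes, as without it.

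With 2 libraries per group no sample was checked as an outlier. Calls near 10 counts were lost with single libraries left out, at IFI27L2 -7252 bp with log2 values from 1.77 to 2.70 and at IFI44 -3924 bp from 1.45 to 1.70.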
